A study of Mus musculus with 2 samples.

Results

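The genes described here make, release and sense prostaglandins and leukotrienes, the lipid mediators that macrophages derive from arachidonic acid. The set of 10 was chosen by name, with earlier results of these data known. All 10 were found by gene symbol among 55536 annotated gene rows, of which 22015 are nuclear protein-coding genes. They are Pla2g4a, Ptgs1, Ptgs2, Ptges, Tbxas1, Alox5, Alox5ap, Ltc4s, Ptger2 and Ptger4. Members were matched on the gene symbol alone.

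RNA of the nucleoplasm, the soluble part of the nucleus, was sequenced after depletion of ribosomal RNA in 2 libraries of 1 group. The cells were bone marrow-derived macrophages of C57BL/6J mice, an inbred laboratory strain, with no genetic change named in the labels. Both libraries had the same treatment, which was 100 ng/ml Lipid A for 12 h, a washout of 12 h and a second dose of 100 ng/ml for 30 min. Lipid A is the part of bacterial lipopolysaccharide that Toll-like receptor 4 recognises. No untreated, single-dose or cytoplasmic sample was analysed here, so the values are levels in 1 condition and their spread between replicates, and carry no p-value. Starting RNA was 1 µg for replicate 1 and 500 ng for replicate 2, per the labels. The labels give the replicates separate biosamples but 1 donor identifier, so the spread between them may be technical in part.

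Arachidonic acid is cut from membrane phospholipids by phospholipase A2 enzymes. Cyclooxygenases turn it into prostaglandin H2, which separate synthases convert to prostaglandin E2, prostaglandin D2, thromboxane A2 and prostacyclin, while 5-lipoxygenase and its partner protein start the leukotriene branch. In macrophages, Ptgs2 is the classic inducible cyclooxygenase of the Toll-like receptor response, Ptgs1 is regarded as the constitutive form, and prostaglandin E2 acts back on the cells through receptors that raise cyclic AMP.

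The total count of genes was 23845991 in replicate 1 and 20675294 in replicate 2. Levels are given as TPM, a unit of transcript abundance that corrects for transcript length and so can be compared between genes. Macrophage identity was checked first: all 10 macrophage markers reached at least 1 TPM in each library, Lyz2 being the highest. That level in both libraries was reached by no marker of mast cells (0 of 7 genes), neutrophils (0 of 8), eosinophils and basophils (0 of 6) or dendritic cells (0 of 5). In replicate 2 alone, Ccr7 of the dendritic cell list (1.45 TPM) and S100a8 and S100a9 of the neutrophil list (1.16 and 1.10 TPM) passed 1 TPM. Of the 7 megakaryocyte and platelet markers, Pf4 alone reached 1 TPM in both libraries, at 15.4 TPM in replicate 1 and 26.9 TPM in replicate 2. In bulk RNA, fewer cells of a type and less RNA per cell cannot be told apart.

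A level of at least 1 TPM in each library, called detected below, was reached by 8 of the 10 genes, beside 41.8% of all nuclear protein-coding genes. Tbxas1, Alox5ap, Ptgs2 and Ptger4, 4 of the 10, had a mean of 10 TPM or more, beside 17.4% of those genes. With TPM rescaled to a total over nuclear protein-coding genes alone, 8 members had such a mean. This rescaling raises the values of all genes, for Tbxas1 from a mean of 34.9 to 176. The share of all genes at this setting was not computed, so the 8 cannot be read as a trait of the members. Ltc4s and Alox5, the lowest, had between 7 and 22 counts per library. By mean TPM the order was Tbxas1, Alox5ap, Ptgs2, Ptger4, Pla2g4a, Ptger2, Ptgs1, Ptges, Ltc4s and Alox5. The ranges over the libraries overlapped for Tbxas1 and Alox5ap, for Alox5ap and Ptgs2, for Ptgs2 and Ptger4, and for Ptgs1 and Ptges, so these neighbours were not separated by their spread. The other 5 neighbouring pairs did not overlap in these tables. In the tables made from reads, the order by mean was reversed for 2 of those 5, with Pla2g4a above Ptger4 (8.76 against 7.95 TPM) and Ptgs1 above Ptger2 (1.93 against 1.74 TPM). Pairs that are not neighbours moved as well: Ptges, at a mean of 4.16 TPM from reads, stood above both Ptger2 and Ptgs1 in each library.

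**Figure D1:**
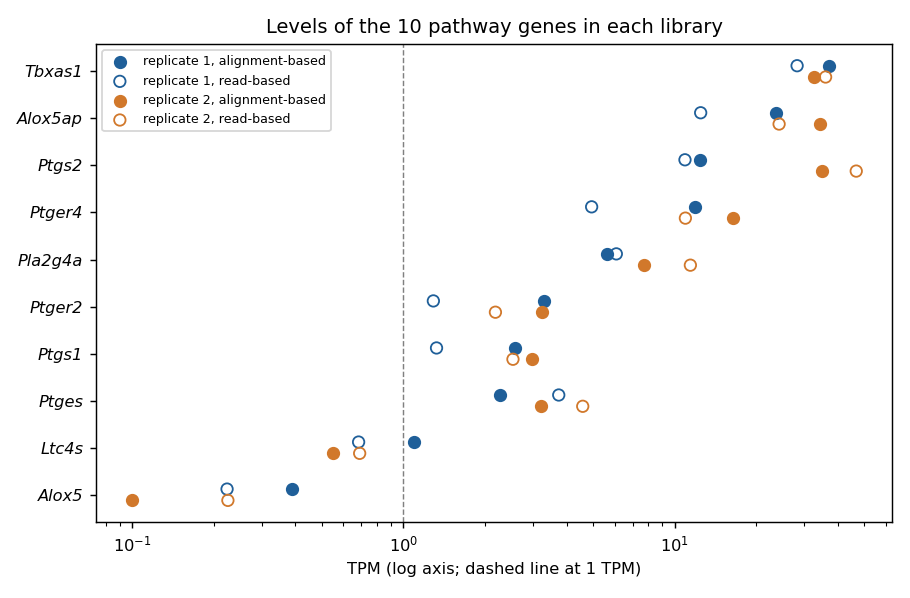
TPM of the 10 genes on a log axis, with replicate 1 in blue and replicate 2 in orange. Filled points are from the gene tables made from alignments and open points from the tables made from reads. The points of Ptgs2 lie farthest apart among the genes above 10 TPM, from 12.4 to 34.8 TPM in the gene tables, and Alox5 lies below 1 TPM in every table.

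Pla2g4a encodes cytosolic phospholipase A2 alpha, which releases arachidonic acid from phospholipids. It was measured at 5.65 TPM in replicate 1 and 7.69 TPM in replicate 2 (mean 6.67 ± 1.44 SD, n = 2), from 556 and 500 counts. Scaled for library size, the counts of the replicates differed by less than counting error, with a log2 ratio of replicate 2 over replicate 1 of 0.04 (95% interval -0.13 to 0.22). This gene lay near the middle of the detected coding genes, 43.3% of which were lower in replicate 1 and 47.0% in replicate 2. It occupies 1:149829618-149961290 on the minus strand of mm10.

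In the wider list for arachidonate release and remodelling, 10 of 17 genes were detected and none was at 0 in both. The highest were Pla2g15, a lysosomal phospholipase A2, at 42.8 ± 6.55 TPM, and Lpcat2, which puts acyl chains back onto lysophospholipids and also makes platelet-activating factor, at 23.3 ± 3.56 TPM (mean ± SD, n = 2). Both exceeded Pla2g4a in each library.

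The cyclooxygenases stood far apart in level. Ptgs2, the inducible enzyme, was at 12.4 TPM in replicate 1 and 34.8 TPM in replicate 2 (mean 23.6 ± 15.8 SD, n = 2). Ptgs1 was at 2.58 and 2.98 TPM (mean 2.78 ± 0.283 SD, n = 2). Ptgs2 was thus above Ptgs1 in both libraries with no overlap, by 4.82-fold in replicate 1 and 11.7-fold in replicate 2. From the tables made from reads, the same fold was 8.23 and 18.4. Ptgs2 lies at 1:150100031-150108227 and Ptgs1 at 2:36230426-36252272, both on the plus strand.

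The stretches just before the start sites of these genes are shown because the enzymes carry out the same reaction. Whether these stretches bear on the difference in level was not tested. They are the 250 bases upstream of the RefSeq starts on GRCm38.p6, which is the sequence of mm10, at chr1:150099781-150100030 for Ptgs2 and chr2:36230176-36230425 for Ptgs1, both on the plus strand, 5′ to 3′. Capitals mark every match, on either strand, to 8 short promoter motifs.
Ptgs2: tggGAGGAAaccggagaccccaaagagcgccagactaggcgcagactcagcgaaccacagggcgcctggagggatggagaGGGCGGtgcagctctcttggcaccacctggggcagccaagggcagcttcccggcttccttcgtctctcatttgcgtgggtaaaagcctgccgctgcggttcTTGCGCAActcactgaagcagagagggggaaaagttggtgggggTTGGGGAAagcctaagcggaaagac
Ptgs1: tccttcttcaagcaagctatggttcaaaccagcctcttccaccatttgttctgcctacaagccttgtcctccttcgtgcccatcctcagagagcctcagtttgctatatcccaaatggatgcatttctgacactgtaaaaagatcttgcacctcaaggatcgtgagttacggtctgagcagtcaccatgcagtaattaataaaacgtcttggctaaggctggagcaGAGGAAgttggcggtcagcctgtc

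The Ptgs2 stretch had a GC content of 61.6% and held 2 matches to the C/EBP pattern TTNNGNAA, at -69 to -62 and -25 to -18 from the start, 1 GC box (GGGCGG) at -170 to -165 and 1 ETS pattern (GAGGAA) at -247 to -242. The first C/EBP match reads on both strands. The Ptgs1 stretch had a GC content of 48.0% and held 1 match in all, the ETS pattern at -24 to -19. Among 32851 promoter stretches of this length, 36.8% held the C/EBP pattern, 32.7% the GC box and 23.3% the ETS pattern, so each of these matches is common. The other motifs searched were the TATA box (TATAAA, 12.4% of stretches), the cyclic AMP response element core (CGTCA, 17.8%), the E-box (CACGTG, 6.02%), CCAAT (33.8%) and the kappaB motif (7.25%). Both genes lacked these letters in this window. That says nothing of matches farther upstream or past the start site, which were not searched, or of binding by the factors.

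Ptgs2 was also the gene whose replicates differed most among the well-counted members. It had 2039 counts in replicate 1 and 4094 in replicate 2, a log2 ratio of 1.20 (1.13 to 1.28), or 2.30-fold after scaling. In TPM the fold was 2.80, where the median detected coding gene was itself 1.20-fold higher in replicate 2. The deposited bounds on the TPM of each library, 11.6 to 12.9 and 32.6 to 34.9, were far narrower than this gap. Ptgs2 stood above 68.1% of detected coding genes in replicate 1 and above 87.3% in replicate 2, so its place in the order of members moved from the third to the first.

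Ptgs2 was the only 1 of the 8 members averaging at least 100 counts to lie beyond 2-fold between the replicates. Over all 9675 genes with such counts, 3.49% lay beyond 2-fold in either direction and 1.67% were beyond it and higher in replicate 2. A larger ratio than that of Ptgs2 was found in 83 of these genes. The middle 95% of all genes lay between -0.90 and 0.87 on the log2 scale. The summed TPM of the 10 macrophage markers also differed, at 2148 in replicate 1 and 3588 in replicate 2. These sums are not scaled between the libraries and carry the 1.20-fold TPM shift of the median detected coding gene. Lyz2 alone was at 1023 and 1953 TPM, while Fcgr1 (95.3 and 81.0 TPM) and Mertk (59.9 and 59.8 TPM) were not higher in replicate 2. The starting RNA differed too, and the part of either in the Ptgs2 difference was not tested.

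The other 7 well-counted members had log2 ratios between -0.20 (Ptger2) and 0.29 (Alox5ap). For Tbxas1, Alox5ap and Ptger4 the counting interval did not include 0, but all 3 lay well inside the spread of all genes. Ltc4s and Alox5 had log2 ratios of -1.11 and -1.05, with intervals of -2.67 to 0.16 and -2.40 to 0.08 that include no difference, since their counts are few. The 25 other pathway genes averaging at least 100 counts all lay within 2-fold.

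**Figure D2:**
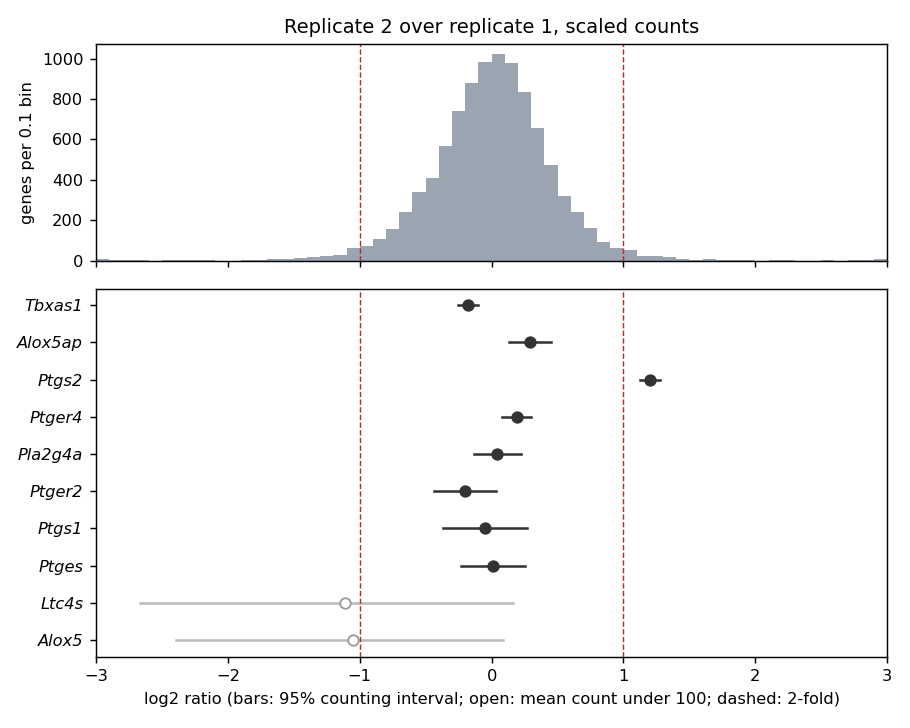
Log2 ratio of replicate 2 over replicate 1 from scaled counts. The upper panel counts all 9675 genes averaging at least 100 counts per 0.1 bin, and the lower panel shows the 10 members with 95% counting intervals (open points: mean count under 100; dashed lines: 2-fold). Of the filled points, Ptgs2 alone lies past a dashed line, at 1.20.

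The annotated noncoding genes on either side of Ptgs2 were low. Ptgs2os, a noncoding gene read from the other strand that starts 67 bases upstream of Ptgs2 and therefore inside the stretch printed above, had 10 and 11 counts. Ptgs2os2, a noncoding gene 50815 bases downstream, had 24 and 40 counts, a log2 ratio of 0.92 (0.17 to 1.73). In the tables made from reads it had 127 and 171 counts and a log2 ratio of 0.39, so its size depended on the table. Pla2g4a is the neighbour on the other side, 138740 bases away, and its counts did not differ beyond counting error.

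Among the prostanoid synthases, Tbxas1 was the highest member. It encodes thromboxane A synthase, a cytochrome P450 of the endoplasmic reticulum, and was at 37.2 TPM in replicate 1 and 32.7 TPM in replicate 2 (mean 34.9 ± 3.20 SD, n = 2), from 3219 and 2478 counts. This put it above 90.3% and 86.2% of detected coding genes. Tbxas1 is also used by platelets. Of the megakaryocyte and platelet markers, Pf4 was at 15.4 and 26.9 TPM and the others were below 1 TPM in both libraries. Whether other cells added to the Tbxas1 signal was not tested.

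Ptges, the inducible microsomal prostaglandin E synthase that works with Ptgs2, was low by comparison. It was at 2.28 and 3.21 TPM (mean 2.75 ± 0.658 SD, n = 2), from 302 and 266 counts. Tbxas1 exceeded Ptges by 16.3-fold in replicate 1 and 10.2-fold in replicate 2. From the tables made from reads, the fold was 7.56 and 7.85. Ptges lay in the lower part of the detected coding genes, above 15.5% and 19.7% of them. It lies at 2:30889471-30929863 on the minus strand, and Gm13400, which overlaps it on the same strand without sharing an exon, had 16 and 5 counts.

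In the whole list of prostanoid synthases, 8 of 10 genes were detected. Hpgds, the hematopoietic prostaglandin D synthase, was the highest of the 69 pathway genes at 101 and 98.4 TPM. It exceeded Tbxas1 by 2.73-fold in replicate 1 and 3.01-fold in replicate 2. Ptges3, a cytosolic prostaglandin E synthase that is also the HSP90 cochaperone p23, was at 12.4 ± 4.97 TPM (mean ± SD, n = 2) and above Ptges in each library. Ptgis, the prostacyclin synthase, had no count in either library in the gene tables, and a count of 0 allows up to 3 counts in each library.

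Much of the Tbxas1 signal was assigned to transcripts annotated as retaining an intron, a class that GENCODE counts as noncoding. They held 56.3% of the gene's TPM in replicate 1 and 76.1% in replicate 2, and protein-coding transcripts held 42.1% and 20.97%. In estimated counts, where long transcripts weigh more, the retained-intron share was 80.1% and 88.9%. Over 5914 detected coding genes with such transcripts the median share of TPM was 25.9% in replicate 1 and 20.6% in replicate 2, with upper quartiles of 41.1% and 36.7%. Tbxas1 thus lay above the upper quartile in each.

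The leading Tbxas1 transcript in counts was Tbxas1-205, a retained-intron form of 12 exons that reaches the end of the gene, with 44.4% and 50.2% of the counts. The full coding transcript, Tbxas1-201, has 13 exons and held 15.4% and 9.31%. Tbxas1-202, a retained-intron form of 9 exons that ends about 154 kb from the start of the gene, held 23.7% and 27.2%. The gene lies at 6:38875404-39084585 on the plus strand of mm10. Hipk2, on the opposite strand, overlaps its body without sharing an exon and had 2356 and 2904 counts. No source used here gives the strand setting, so reads of Hipk2 within the introns of Tbxas1 cannot be told apart from its own.

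**Figure D3:**
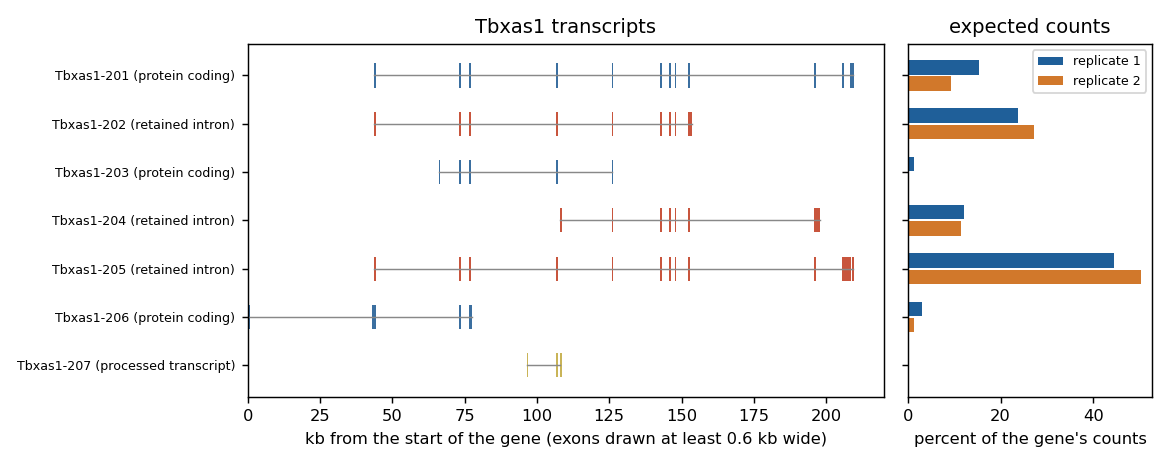
Annotated transcripts of Tbxas1, drawn from the start of the gene in kb, coloured by class (blue protein coding, red retained intron, yellow processed transcript), beside the percent of the gene's expected counts assigned to each. Tbxas1-205 has the longest bars in both replicates, at 44.4% and 50.2%.

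The leukotriene branch was uneven. Alox5ap, the membrane protein known as FLAP that presents arachidonic acid to 5-lipoxygenase, was at 23.7 TPM in replicate 1 and 34.2 TPM in replicate 2 (mean 29.0 ± 7.45 SD, n = 2), from 637 and 680 counts. It stood above 83.3% and 87.0% of detected coding genes. It lies at 5:149264767-149288153 on the plus strand. On the opposite strand Gm19719 shares 189 exon bases with it and had 84 and 56 counts, fewer than Alox5ap in both libraries.

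Alox5, the 5-lipoxygenase itself, was at 0.39 TPM in replicate 1 and 0.10 TPM in replicate 2, from 22 and 9 counts. It lies at 6:116410077-116461178 on the minus strand. The Poisson intervals of these counts, 13.8 to 33.3 and 4.12 to 17.1, overlap. Alox5ap exceeded Alox5 by 60.8-fold in replicate 1 and 342-fold in replicate 2, and by 55.7-fold and 108-fold in the tables made from reads. The gap was large in each table, while its size rests on the few Alox5 counts. The deposited bounds on Alox5 TPM in replicate 2, 0.174 to 0.736, do not contain the deposited value of 0.10.

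Ltc4s, the synthase that joins glutathione to leukotriene A4, was at 1.09 and 0.55 TPM (mean 0.820 ± 0.382 SD, n = 2), from 18 and 7 counts. It lies at 11:50236461-50238616 on the minus strand. The Poisson intervals, 10.7 to 28.4 and 2.81 to 14.4, overlap, so no difference between the replicates was detectable at this depth. Alox5ap exceeded Ltc4s by 21.7-fold and 62.2-fold. Gm26542 on the opposite strand shares 268 exon bases with Ltc4s and had more counts than it, 63 and 31, and without the strand setting reads of the shared bases cannot be told apart. Mast cells and eosinophils are known for high Ltc4s, and the summed TPM of each of their marker lists was at most 0.58 in each library. Which cells the Ltc4s counts came from was not tested.

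In the list of lipoxygenases and leukotriene synthesis genes, 2 of 12 were detected, namely Alox5ap and Lta4h, the hydrolase that makes leukotriene B4. Lta4h was at 8.45 and 7.59 TPM. Mgst2, a microsomal glutathione transferase able to make leukotriene C4, was at 0.985 ± 0.304 TPM (mean ± SD, n = 2), but at 2.34 and 2.96 TPM in the tables made from reads, where it would count as detected. Alox15, Alox8, Alox12b and Alox12e, 4 genes of the list, had no count in the gene tables of either library; from reads, Alox8 had 36.0 and 44.3 estimated counts and the other 3 had none.

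The receptors encoded by Ptger4 and Ptger2 bind prostaglandin E2 and couple to cyclic AMP. Ptger4, the EP4 receptor, was at 11.9 TPM in replicate 1 and 16.5 TPM in replicate 2 (mean 14.2 ± 3.21 SD, n = 2), from 1414 and 1406 counts. Ptger2, the EP2 receptor, was at 3.30 and 3.23 TPM (mean 3.27 ± 0.0495 SD, n = 2), from 352 and 267 counts. Ptger4 was above Ptger2 in both libraries with no overlap, by 3.61-fold and 5.09-fold, and by 3.83-fold and 5.01-fold in the tables made from reads. Ptger4 lies at 15:5206661-5244187 on the minus strand and shares 82 exon bases with Ttc33 on the other strand, which had 178 and 184 counts. Ptger2 lies at 14:44988195-45003820 on the plus strand.

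Of the 9 prostanoid receptor genes, 4 were detected, and Ptger4 was the highest. Ptgir, the prostacyclin receptor, was at 4.64 ± 0.721 TPM (mean ± SD, n = 2). Ptgdr and Ptgfr, receptors for prostaglandins D2 and F2 alpha, had no count in the gene tables of either library, and between 16.4 and 27.1 estimated counts from reads. Ptgdr is a receptor for the product of Hpgds, the highest synthase gene.

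The retained-intron share was also high in Ptger2, but it was lower in replicate 2, where that of Tbxas1 was higher. The single retained-intron transcript of Ptger2 held 68.1% of its TPM in replicate 1 and 47.1% in replicate 2, and its only coding transcript held 31.9% and 52.9%. An annotated retained-intron transcript exists for 6 of the 10 members. The share lay above the upper quartile of genes in both libraries for 3 of them, Alox5, Ptger2 and Tbxas1, of which Alox5 rests on few counts. In the tables made from reads as well, it did so for Alox5 and Ptger2, while Tbxas1 in replicate 1 was at 39.4%. For Ptgs1 the share was 36.8% and 34.6%, and for Pla2g4a it was 24.4% and 14.7%.

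Ptgs2, Ptger4, Ptges and Alox5ap have no annotated retained-intron transcript, so none of their TPM could fall to that class. All Ptgs2 TPM in the gene tables fell to protein-coding transcripts, as both of its 2 annotated transcripts are coding. For Ptger4 the coding share was 98.4% and 96.6%. For Ptges it was 100% and 85.0%, but 24.8% and 36.8% in the tables made from reads. Coding transcripts of Alox5ap held 58.2% and 64.1%. These classes are annotation labels, and reads from introns of unspliced RNA that no transcript covers do not enter them.

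**Figure D4:**
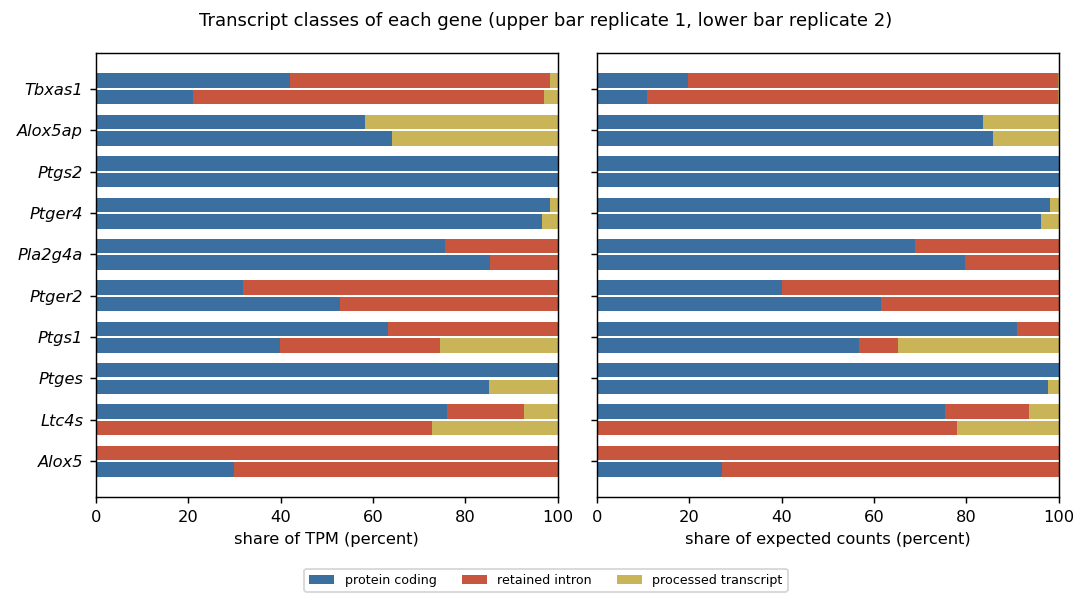
Share of each member's TPM (left) and expected counts (right), in percent, by annotated transcript class, with replicate 1 above replicate 2 for each gene. Retained-intron transcripts (red) hold 56.3% and 76.1% of Tbxas1 TPM. Ptgs2, Ptger4, Ptges and Alox5ap have no such transcript annotated, and the bars of Ltc4s and Alox5 rest on at most 22 counts.

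Compared between the 2 kinds of table within each library, the transcript with the highest TPM agreed in both libraries for 2 of the 10 members, Ptgs1 and Ptgs2. Ranked by estimated counts, it agreed for 8. The share of all genes that agree was not computed, so these counts cannot be read as a trait of the members. For Ptgs2 the short transcript Ptgs2-202, of 358 bases, was listed at 0 in the gene-table set but held 46.3% of the gene's TPM in replicate 1 from reads, on 79.4 of 2871 counts. Short transcripts gain much TPM from few counts, so such shares differ with the unit.

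Beyond the enzymes and receptors above, 4 of 7 genes for leukotriene and other lipid mediator receptors were detected. The highest were Fpr2, a formyl peptide and lipoxin receptor, at 24.3 ± 2.74 TPM, and Cmklr1, the chemerin receptor, at 14.5 ± 4.11 TPM (mean ± SD, n = 2). Of 12 genes for transport and breakdown, 7 were detected. Dpep2, a dipeptidase that turns leukotriene D4 into leukotriene E4, was at 23.0 ± 0.877 TPM and Abcc1, an exporter of leukotriene C4, at 13.7 ± 3.10 TPM. Hpgd, which inactivates prostaglandins, had no count in either library.

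In all, 37 of the 69 pathway genes were detected, beside 41.8% of nuclear protein-coding genes. The counts of detected genes by role are to be read beside that same share. The list was chosen with earlier results of these data known, so this is no test of it. Counts were 0 in the gene tables of both libraries for 12 (17.4%), beside 33.4% of nuclear protein-coding genes, and 5 of these 12 were also at 0 in the tables made from reads. The share detected was lowest for lipoxygenases and leukotriene synthesis, at 2 of 12, and both cyclooxygenases were detected. Set against this list, Alox5ap and Ptger4 were each the highest gene of their role, and Tbxas1 was next to highest, below Hpgds. For Ptgs2 such a place was certain beforehand, because the cyclooxygenase list holds only 2 genes, so its rank carries no information. Tbxas1, Alox5ap, Ptgs2 and Ptger4 are also the members with a mean of 10 TPM or more. A high place in their roles is therefore partly built in.

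**Figure D5:**
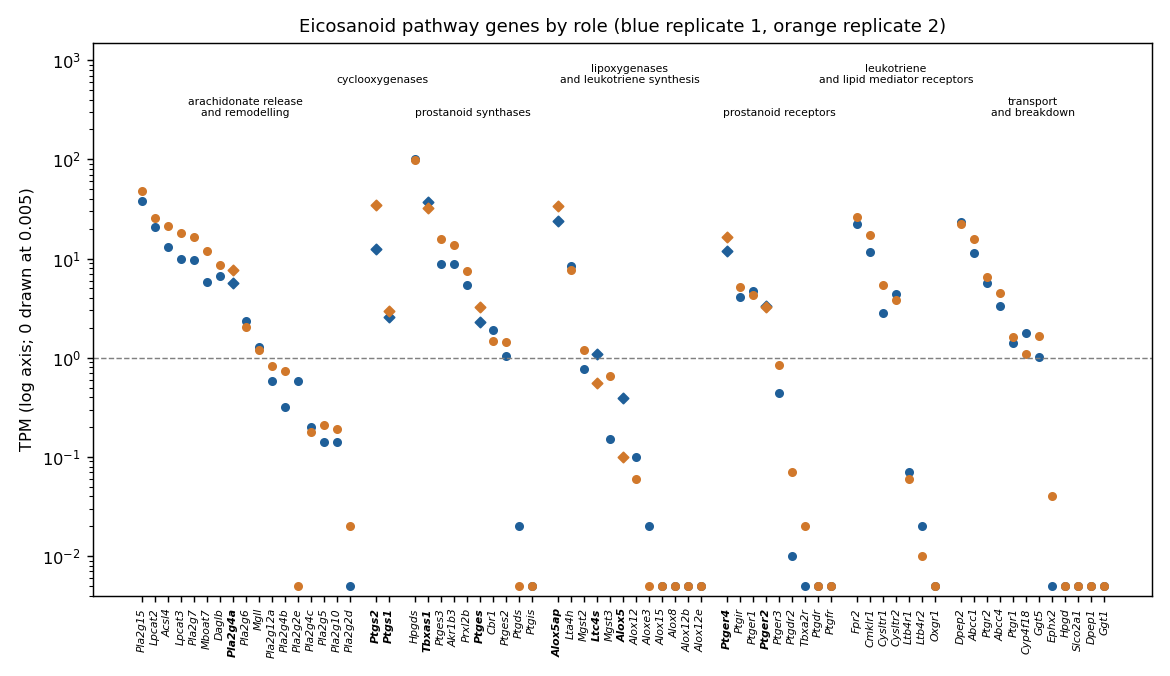
TPM of the 69 pathway genes on a log axis, ordered within 7 roles by mean, with replicate 1 in blue and replicate 2 in orange, the 10 members as diamonds with bold names, and 0 drawn at 0.005. Hpgds is the highest gene at 101 and 98.4 TPM, and 2 of 12 lipoxygenase and leukotriene synthesis genes lie above the dashed line at 1 TPM in both libraries.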

How the data were processed

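Nucleoplasmic RNA was measured in 2 libraries of 1 group. Per the file headers, the tables are on mm10 with GENCODE M21; aligner, quantification tools and strand setting: not given in the sources used here. For each library the authors deposited gene and transcript tables from alignments, with expected counts (estimated, not always whole), TPM, FPKM, percent of the gene's TPM per transcript and credibility bounds (treated as signal values), and a transcript table from reads with estimated counts and TPM. The deposited FPKM entered only as an alternative to TPM, and the percent was recomputed from TPM.

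Counts of genes were rounded, leaving out 26345 rows that are not genes (tRNAs, spike-ins and a phage), and scaled with edgeR 4.0.16 (TMM factors 0.997 and 1.00). Log2 ratios used a prior count of 0.5 and exact Clopper-Pearson intervals at 95%, and genes averaging at least 100 counts were tallied. Intervals and the limit of 3 counts cover counting error only. The calculations were tested on simulated data. The libraries' counts gave a chi-square of 113 per gene over 14345 genes, so they are not 1 library listed again. As alternatives, size factors of DESeq2 1.42.0, library size alone, other count minimums and thresholds, another prior count, TPM over coding genes, ratios of TPM, the read-based tables and each library alone were used.

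Named genes were all members, the 2 other genes of highest mean TPM in each role, any other pathway gene beyond 2-fold, and the highest gene of each marker list (Lyz2, Pf4, S100a9, Kit, Ccr3 and Ccr7); other names were chosen after their values were seen. A gene that this rule names among the prostanoid receptors is not reported here. The members and lists were chosen with earlier results of these data known. Of the 10 members, 9 matched the RefSeq promoter table; Alox5ap did not.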

Additional observations from a re-analysis of the deposited data

How the results depend on the processing

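With TPM rescaled over nuclear protein-coding genes, 8 members rather than 4 had a mean of 10 TPM or more. That rescaling raises all genes, and the share of all nuclear protein-coding genes at this setting was not computed, so the 8 is no trait of the members. The number beyond 2-fold was 1 (Ptgs2) at a mean count of 100, and 3 at a minimum of 10 or with no minimum, where Ltc4s and Alox5 enter on few counts. Of all genes averaging at least 100 counts, 3.49% lay beyond 2-fold, and the share at the lower minimums was not computed. The leading transcript agreed between the tables for 2 members by TPM in both libraries, for 8 by estimated counts, and for 5 with either library left out. No share over all genes was computed for these. The counts of detected members (8 to 9) and detected pathway genes (31 to 42) stayed within 1.5 times the reported count under the alternatives run. Over the 10 members, all log2 ratios stayed within their counting intervals under DESeq2 size factors, library size, a prior count of 5 and read-based counts; as a ratio of TPM, 5 moved, where the median of detected coding genes itself shifts by 0.26 on the log2 scale. Levels in TPM moved by more than 1 SD for 6 members in the read-based tables and for all 10 when rescaled over coding genes. Ptgs2 kept its direction in each setting. The log2 ratio of Ptges went from 0.01 to -0.18 with read-based counts and that of Ptgs1 from -0.05 to 0.21 as a ratio of TPM; both have counting intervals that include 0. Both libraries carry the same treatment, so no paired analysis was possible because there are no groups to pair. Depth limits Alox5 and Ltc4s.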

Other observations

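The 2 kinds of table disagreed for some pathway genes. By a rule chosen after the values were seen, a mean of at least 10 estimated counts from reads and at least 4 times the mean in the gene tables, 11 of 69 genes did: Aloxe3, Mgst2, Slco2a1, Alox12, Pla2g2d, Pla2g2e, Alox8, Ltb4r2, Ptgfr, Pla2g10 and Ptgdr. Slco2a1, the prostaglandin transporter, had 0 counts in both libraries in the gene tables but 154 and 364 estimated counts from reads. Aloxe3, an epidermal lipoxygenase, had 3 and 0 against 252 and 196. Alox12, the platelet-type lipoxygenase, had 10 and 4 against 115 and 109. Mgst2 had 42 and 33 against 215 and 169. None of the 10 members met the rule. The share of all genes that meet it was not computed, so these counts cannot be read as a trait of the pathway or its members. The cause of the disagreement was not tested.

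Cysltr1, a cysteinyl leukotriene receptor, was also chosen after its values were seen. It was at 2.83 TPM in replicate 1 and 5.41 TPM in replicate 2, from 454 and 618 counts, a log2 ratio of 0.64 (0.47 to 0.82). It was thus above both Alox5 and Ltc4s, which act in the synthesis of its ligands, in each library.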
